A study of Mus musculus with 12 samples.

Results

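Mbp, Pmp22, Sox10, Fabp7, Apoe, S100b, Erbb3 and Glul are 8 genes widely used to recognise Schwann cells and satellite glia. They were followed by symbol through ribosome pull-downs and matched inputs of cultured sensory neurons. The count table of the libraries labelled Cre+ lists 6 of them among 9112 genes, and the table of the libraries labelled Cre- lists 7 among 14177. Fabp7 was therefore analysed in the libraries labelled Cre- alone, and Erbb3 was not analysed here.

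The study isolated ribosome-bound RNA by an HA tag on the ribosomal protein Rpl22 (RiboTag), which cells make only after Cre recombination. All mice carried Rpl22HA/HA, and were either Runx3-Cre+ or Runx3-Cre-. Runx3 is a transcription factor of proprioceptors, the sensory neurons of muscle stretch, so its Cre is meant to tag those neurons, and Rpl22HA/HA Runx3-Cre- cultures should hold no tagged ribosomes. Neurons from dorsal root ganglia (DRG) of male mice, 3 to 6 months old by the labels and younger by the study's methods, were separated from myelin debris and glia on Percoll and kept for 24 h in medium with serum. Each sample pooled 5 mice, each spread over 4 wells, and 10% of each lysate was kept as the input. There were 3 pull-downs and 3 inputs of each genotype. Cre+ and Cre- stand below for libraries labelled so, and Runx3 itself goes against those labels. It was called enriched in the pull-downs labelled Cre- (log2 fold change 3.52, FDR = 0.000236) and not in those labelled Cre+ (1.55, FDR = 0.309). Whether labels or tables were exchanged was not tested, and with an exchange every difference between genotypes given here would change sign. The columns taken as Cre+ pull-downs bear names that match, punctuation aside, titles given to Cre- samples. Every Cre+ pull-down value rests on reading them as Cre+, which was done because the Cre+ samples' labels name that table. Their numbers only tell the libraries apart. All p-values measure the spread between these pooled samples.

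Schwann cells wrap or accompany axons and satellite glia cover the cell bodies of the ganglion. Both arise from the neural crest under the transcription factor Sox10, and both depend on the receptor Erbb3, which with Erbb2 receives neuregulin from the axon. Mature Schwann cells make compact myelin, with Mbp and Pmp22 among its proteins. Satellite glia are known for Fabp7 and for Glul, which turns glutamate into glutamine. RNA of such cells that remain in a neuron culture is present in the input, whereas a pull-down from tagged neurons should hold less of it. In bulk samples, fewer cells of a type and less RNA per cell cannot be told apart.

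Library totals ran from 8886308 to 18633365 counts. The ribosomal RNA precursor Rn45s took 5.70% to 8.53% of the counts of the inputs and 2.80% to 4.38% of those of the pull-downs. All 12 neuronal marker genes of the list used here were present in both tables, and their summed level was 22565 to 29772 normalized counts in the Cre+ inputs and 23041 to 25511 in the Cre+ pull-downs. In the libraries labelled Cre- that sum was 25929 to 30725 in the inputs and 50601 to 58250 in the pull-downs. A sum is weighted towards abundant genes, and the median log2 fold change of the 12 in Cre- was 0.33. Nefm (1.29) and Nefh (1.35) were among those that rose there, and Rbfox3 (-0.76) and Tubb3 (-0.35) among those that fell. Normalized counts are counts per 1000000 after TMM scaling. Some pull-downs stood apart in markers of other cells. Cre- pull-down replicate 1 had a summed fibroblast level of 97.5, against 31.3 and 25.5 in the others of its group, and an endothelial level of 143.9, against 21.4 and 25.5. Cre+ pull-down replicate 1 had an endothelial level of 561, against 117.7 and 156.2, and a macrophage level of 112.3, against 16.8 and 4.85. The tests of the glial genes and of the related lists were also run without either library.

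The glial genes stood at very different levels. Per kilobase of transcript, in the Cre- inputs, Pmp22 had 1617 ± 452 normalized counts (SD, n = 3), S100b 216 ± 29.4 and Glul 160.5 ± 31.8. Far lower were Sox10 with 9.80 ± 1.001, Mbp with 8.25 ± 0.760, Apoe with 7.39 ± 2.33 and Fabp7 with 2.72 ± 1.07, on the same scale. The library ranges of S100b and Glul overlapped, as did those of Apoe with both Mbp and Sox10, whereas Pmp22 lay apart from the rest. The Cre+ inputs gave the same order of means over 6 genes, from 1365 ± 329 for Pmp22 to 6.52 ± 2.12 for Apoe. There Sox10 was the least even, with 17.1 ± 16.5, and its place above Mbp rested on Cre+ input replicate 1. By library it had 36.04, 9.23 and 5.98, against 7.36, 12.35 and 7.01 for Mbp. Of the summed normalized count of the 6 genes listed in both tables, Pmp22 made up 72.2% to 82.9% in the inputs of both genotypes, 70.7% to 77.1% in the Cre+ pull-downs and 40.1% to 57.3% in the Cre- pull-downs.

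**Figure D1:**
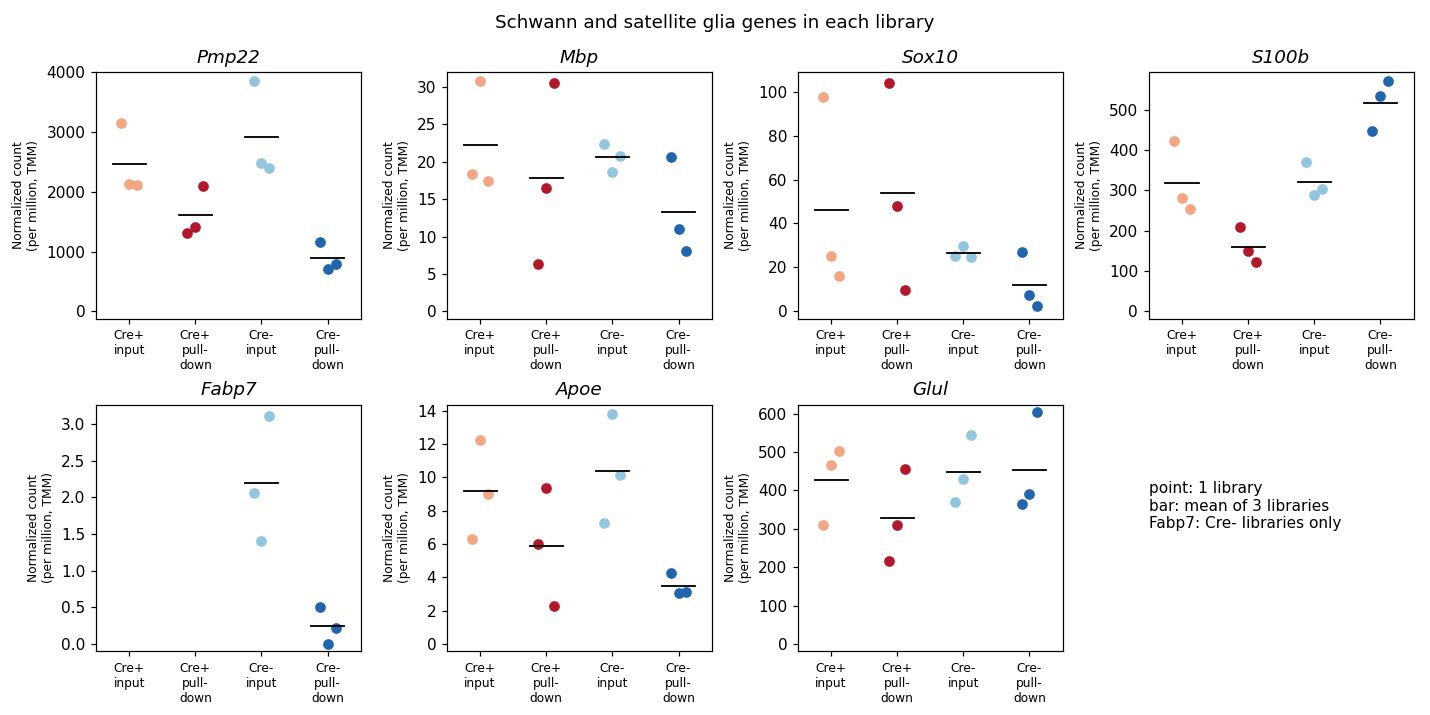
Normalized counts (counts per 1000000 after TMM scaling within each genotype) of 7 glial genes, by group; each point is 1 library and each bar the mean of 3. Pmp22 pull-downs lie below the inputs in both genotypes, and S100b pull-downs lie below the inputs labelled Cre+ and above those labelled Cre-.

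In the pull-downs labelled Cre-, 3 of the 7 glial genes tested were called depleted, namely Pmp22, Apoe and Fabp7, and 0 were called enriched. A call required an FDR below 0.1 (Benjamini-Hochberg over all genes tested) and a 2-fold change with edgeR's quasi-likelihood test. Over all 11526 genes tested, 5.83% were called depleted and 6.01% enriched. With the replicate number as a block, 4 of the 7 were called depleted, Sox10 being added, against 6.87% of all genes. That block reads same-numbered pull-downs and inputs as pairs, which no label states. The median log2 fold change was -1.11 over the 7 genes and -0.04 over all genes. The pull-downs lay below every input for 3 of the 7 genes, against 18.6% of all genes, and above every input for 1, S100b, against 18.2%. Scaling by library size alone moved the median of all genes by -0.24, with 429 enriched and 1238 depleted genes in place of 693 and 672.

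In the pull-downs labelled Cre+, 0 of 6 glial genes were called in either direction with the same test, and 2 had an unadjusted p under 0.05, S100b and Pmp22. DESeq2 and edgeR's exact test also called 0, although S100b passed the FDR limit with both (FDR = 0.0936 and 0.0814) and in the fit of all 12 libraries (FDR = 0.015), missing only the fold limit. Among all 8947 genes, 4.72% were called enriched and 2.19% depleted, which is 422 and 196 genes. The median log2 fold change was -0.50 over the 6 genes and 0.08 over all genes. For 2 of the 6, again Pmp22 and S100b, every pull-down lay below every input, against 17.9% of all genes. For 0 of the 6 did every pull-down lie above, against 15.5%. Scaling by library size alone moved the median of all genes by -0.44 and gave 192 enriched and 699 depleted genes, and upper-quartile scaling moved it by -0.19 and gave 249 and 266. By those scalings 2 and 1 of the glial genes were called depleted. On library size alone these were S100b, at -1.45 (FDR = 0.0465), and Pmp22, at -1.05 (FDR = 0.0723), and with upper-quartile scaling it was S100b, at -1.20 (FDR = 0.0824).

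**Figure D2:**
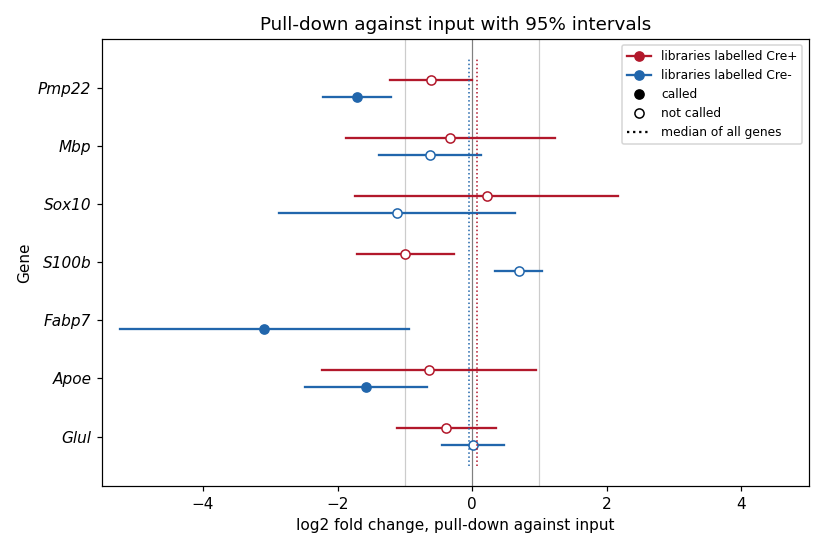
Log2 fold change of pull-down against input with its 95% interval for each glial gene, in the libraries labelled Cre+ (red) and Cre- (blue); filled points were called, dotted lines are the medians of all genes, and grey lines mark no change and 2-fold. Pmp22, Apoe and Fabp7 are filled in blue only, and the intervals of S100b lie on opposite sides of 0.

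Of the myelin proteins, Pmp22 was the most abundant and the most clearly depleted. This membrane protein of compact myelin lies on chromosome 11 from 63128982 to 63159547 of GRCm38. Its Cre- inputs had 3848, 2483 and 2400 normalized counts and its Cre- pull-downs 1159, 707 and 795. All 3 pull-downs were below the lowest input. Pull-down was 3.28-fold below input, a log2 fold change of -1.71 (SE 0.23, FDR = 0.000561). For Cre+, the inputs had 3142, 2122 and 2108 and the pull-downs 1311, 1407 and 2095. The highest pull-down, 2095, was only just below the lowest input, 2108. A log2 fold change of -0.62 (SE 0.27, 95% interval -1.23 to -0.004, FDR = 0.209) did not pass the test. The 11 further myelin genes listed for Cre- summed to only 245.8 to 279.7 normalized counts in the Cre- inputs. By Pearson's r of log2 normalized counts over the 12 libraries, the genes closest to Pmp22 were Cd24a (0.977), Tpm1 (0.954) and Marcks (0.947). Which cells the Pmp22 RNA came from was not tested.

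Mbp, the myelin basic protein that holds the cytoplasmic faces of the membrane together, lies on chromosome 18. In the Cre- inputs it had 22.3, 18.6 and 20.8 normalized counts and in the Cre- pull-downs 20.6, 11.04 and 8.04. The first of these pull-downs lay within the inputs and the others lay below. The fitted change was -0.63 on the log2 scale (SE 0.35, FDR = 0.244). It was -1.09 (FDR = 0.0256) without Cre- pull-down replicate 1, the only fit without 1 library in which Mbp was called. The Cre+ inputs had 18.3, 30.8 and 17.5, and the Cre+ pull-downs 6.33, 16.5 and 30.5. These pull-downs spread 4.82-fold, with 2 of the 3 below every input and the highest within the range of the inputs, and the change of -0.32 (SE 0.69, FDR = 0.812) became 0.12 without Cre+ pull-down replicate 1.

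Sox10, which switches on most glial genes including Mbp, Pmp22 and Erbb3, lies on chromosome 15 from 79154913 to 79164490. Its Cre- inputs were even, with 25.2, 29.7 and 24.9 normalized counts. The Cre- pull-downs had 27.0, 7.32 and 2.31, an 11.7-fold spread, with the first inside the range of the inputs. The log2 fold change of -1.11 (SE 0.75, FDR = 0.364) did not pass the test. It was -1.73 and called with the replicate block (FDR = 0.0731), and -2.43 (FDR = 0.00117) without Cre- pull-down replicate 1. Levels in the Cre+ inputs were 97.8, 25.04 and 16.2 and in the Cre+ pull-downs 103.9, 47.8 and 9.58, so that 1 library of each fraction stood far above the others. The change there was 0.22 (SE 0.87, FDR = 0.906) and turned to -0.26 with scaling by library size alone, to -0.02 with upper-quartile scaling and to -0.66 without Cre+ pull-down replicate 1. Without Cre- pull-down replicate 1 a total of 5 of the 7 glial genes were called depleted, Mbp and Sox10 besides Pmp22, Apoe and Fabp7, against 9.2% of all genes.

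S100b lay on opposite sides of its inputs in the libraries labelled Cre+ and Cre-. This calcium-binding protein of glia, which large sensory neurons are also known to make, lies on chromosome 10 from 76253836 to 76261319. Among the Cre- libraries the inputs had 369.8, 288 and 303 normalized counts and the pull-downs 447, 533 and 571. Every pull-down was above every input, by 1.61-fold on the fitted values. The log2 fold change of 0.69 (SE 0.16, FDR = 0.0114) passed the FDR limit and not the fold limit, and was not called. For Cre+, the inputs had 423, 282 and 253 and the pull-downs 209.8, 149 and 123. Every pull-down was below every input, with a log2 fold change of -0.99 (SE 0.32, 95% interval -1.71 to -0.27, FDR = 0.117), and without Cre+ pull-down replicate 1 it was -1.20 and called (FDR = 0.047).

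Of the lipid-binding genes, Fabp7 had the lowest level. It encodes the brain-type fatty acid binding protein, a marker of satellite glia and of immature Schwann cells, and lies on chromosome 10 from 57784923 to 57788450. In the Cre- inputs it had 21, 17 and 41 counts, which are 2.06, 1.40 and 3.11 normalized counts. The Cre- pull-downs had 9, 0 and 3 counts, or 0.502, 0 and 0.223 normalized counts, and the count of 0 allows a level of up to 0.202. All pull-downs were below all inputs, although the latter were less deeply sequenced (9403767 to 12181960 counts against 14861795 to 18633365). The fit gave a log2 fold change of -3.09 (SE 0.99, 95% interval -5.24 to -0.94, FDR = 0.0491). Without Cre- pull-down replicate 1 it was -4.21 (FDR = 0.0209). It was no longer called once Cre- input replicate 3 was left out (FDR = 0.154), nor without Cre- pull-down replicate 2 (FDR = 0.116) or without Cre- pull-down replicate 3 (FDR = 0.113).

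Apoe, the apolipoprotein that carries lipid between glia and neurons, lies on chromosome 7 from 19696244 to 19701310. Normalized counts were 7.25, 13.8 and 10.2 in the Cre- inputs and 4.24, 3.05 and 3.13 in the Cre- pull-downs, from 42 to 167 counts a library. The groups did not overlap, and pull-down was 2.99-fold below input, -1.58 on the log2 scale (SE 0.42, FDR = 0.0216). The gene was not called with Cre- input replicate 2 left out (-1.32, FDR = 0.113) or in a fit of all 12 libraries (-1.60, FDR = 0.151). In the Cre+ libraries the inputs had 6.29, 12.3 and 9.01 and the pull-downs 5.99, 9.39 and 2.31. The groups overlapped, with a change of -0.64 (SE 0.71, 95% interval -2.23 to 0.95, FDR = 0.611). That change moved to -1.13 when Cre+ pull-down replicate 2 was left out and to -0.23 when replicate 3 was, and it was called in neither fit.

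Apoe was also the only glial gene with letters of a SOX core in its promoter windows, which is why they are shown. The RefSeq promoter table (GRCm38.p6, 250 bases before to 50 after each start) matched 5 of the 8 genes, with 10 windows for Pmp22, Apoe, Fabp7, S100b and Glul. ACAAAG and ACAATG, which do not overlap each other, were searched on both strands. Apoe carried them in 1 of its windows, against 28.6% of all 32851 windows and 31.7% of all genes. The match in the reading direction of the gene starts 144 bases before the start (chr7:19699315-19699344, minus strand), and the match on the opposite strand starts 54 bases before it (chr7:19699225-19699254, minus strand, where CTTTGT is ACAAAG read on the other strand). Both are printed 5′ to 3′ as the gene reads, with the matching letters in capitals.
Apoe, 144 bases before the start: gctcttttctttACAATGcaccagaccccg
Apoe, 54 bases before the start: ggtgtccgctccCTTTGTtggcgggggagg
The letters were thus found in 1 of 5 glial genes, against 31.7% of all genes, and a match is a description, not a binding site.

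Glul, the glutamine synthetase of satellite glia, lies on chromosome 1 from 153899929 to 153909723, and 3.5% of its exon bases are shared with Mir8114 and Teddm2. Its Cre- inputs had 369.9, 429.8 and 544 normalized counts and the Cre- pull-downs 365, 389.9 and 604. Both groups covered nearly the same range, and the change of 0.02 (SE 0.21, 95% interval -0.44 to 0.47, FDR = 0.972) turned to -0.22 with scaling by library size alone and to -0.01 with upper-quartile scaling. The Cre+ inputs had 309.9, 467 and 501, against 216, 309.8 and 456 in the Cre+ pull-downs. These groups overlapped, with a change of -0.38 (SE 0.33, FDR = 0.507).

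Whether the enrichment of a gene differed between genotypes was tested as the difference of both log2 fold changes in a fit of all 12 libraries. Of the 6 glial genes, 1 was called lower in the libraries labelled Cre+, S100b, and 0 were called higher. Among all 8830 genes, 2.10% were called lower and 2.58% higher. As labelled, S100b differed by -1.64 (SE 0.35, 95% interval -2.39 to -0.90, FDR = 0.0373), a call that needed Cre- input replicate 2 (FDR = 0.142 without it), Cre- input replicate 3 (FDR = 0.12 without it) and Cre- pull-down replicate 3 (FDR = 0.133 without it). Pmp22 differed by 1.14 the other way (SE 0.38, 95% interval 0.33 to 1.95, FDR = 0.132). DESeq2 called it (1.18, FDR = 0.0655), and so did the fits without Cre+ pull-down replicate 1 (FDR = 0.0493), Cre+ pull-down replicate 2 (FDR = 0.0823) or Cre- pull-down replicate 1 (FDR = 0.09). The intervals of Sox10 (-1.31 to 4.03), Apoe (-0.69 to 2.65), Mbp (-1.33 to 2.04) and Glul (-1.25 to 0.55) all included 0, with FDR from 0.507 to 0.836.

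Set side by side, the pull-downs showed 1 glial gene called lower in Cre+ than in Cre-, S100b, and 0 called higher, against 1.56% and 1.69% of all genes. On the scale of all 12 libraries S100b had 217, 158 and 129.9 normalized counts in the Cre+ pull-downs and 435, 514 and 554 in the Cre- pull-downs. The groups did not overlap and were 3.01-fold apart, and the log2 difference of -1.59 (SE 0.27) had an FDR of 0.0363. Its FDR rose to 0.131, 0.203 and 0.269 when Cre- pull-down replicate 1, 2 or 3 was left out, and none of these fits called it. Pmp22 had 1356, 1492 and 2212 in the Cre+ pull-downs and 1128, 683 and 771 in the others, all higher in Cre+, with a difference of 0.95 (SE 0.27, FDR = 0.122). Without Cre+ pull-down replicate 1 Pmp22 was called (1.07, FDR = 0.044), and DESeq2 called Pmp22 (1.01, FDR = 0.0502) and Sox10 (2.31, FDR = 0.0912). This comparison and that of the enrichments share the same 6 pull-downs.

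Before the pull-down the glial genes did not differ detectably between genotypes. Of the 6 genes, 0 were called in either direction between the inputs, and 0 had an unadjusted p under 0.05, as 0% of all genes were called higher and 0% lower. At an unadjusted p under 0.05 there were 174 genes, and 1 gene was called by DESeq2 and 1 by the exact test, in each case none of the 6. S100b differed by 0.07 (95% interval -0.40 to 0.55), Glul by 0.002 (-0.47 to 0.47) and Pmp22 by -0.17 (-0.67 to 0.33). Sox10 had the widest interval, -0.33 to 2.08 around 0.88, with the difference at -0.29 without Cre+ input replicate 1, its highest library.

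The members of the group did not rise and fall as one. Across the 12 libraries, which share their groups, Pearson's r with the mean log2 normalized count of the 6 genes was 0.852 for Pmp22, 0.802 for Apoe, 0.724 for Sox10 and 0.571 for Mbp, each of which is itself part of that mean. For S100b it was -0.163 and for Glul -0.15. Sox10 and Glul ran against each other (r = -0.74), and Pmp22 and Mbp went together (r = 0.65). The 5 genes outside the group with the highest r, of 8824, were Ctxn3 (0.938), Chrna3 (0.934), S100a6 (0.934), Kdelc2 (0.933) and Eef1a1 (0.929). S100a6 is a relative of S100b, Chrna3 a nicotinic receptor subunit of neurons and Eef1a1 a translation elongation factor of all cells.

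Other genes of myelin went down with Pmp22 in part. Of 16 further myelin genes, 7 could be tested in Cre-, and 3 were called depleted and 0 enriched, against 5.83% and 6.01% of all genes, with a median of -1.31 against -0.04 for all genes. The 3 were Cd9, a tetraspanin, at -2.33 (FDR = 0.00321), Gjb1, the connexin of Schwann cell incisures, at -3.14 (FDR = 0.0217), and Mal, a myelin proteolipid, at -1.54 (FDR = 0.0477). Among the Cre+ libraries 5 of the 16 were tested and 0 called, with a median of 0.35 against 0.08.

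Around Sox10, 7 of 12 transcription factors of the glial lineage could be tested in Cre-, of which 1 was depleted, Tfap2a of the neural crest (-1.75, FDR = 0.0388), and 0 enriched, with a median of -0.66. A share of 5.83% depleted over all genes makes 1 of 7 a count near the background. For Cre+, 6 were tested, and 1, the zinc finger repressor Zeb2, was called enriched (1.05, FDR = 0.0773), with a median of 0.46, where 4.72% of all genes were called enriched. Zeb2 was also the 1 of 6 factors whose enrichment differed between genotypes (1.61, FDR = 0.0216). In that test 2.58% of all genes were called higher and 2.10% lower. Egr2, the factor that drives myelination together with Sox10, had -1.23 (FDR = 0.203) in Cre- and 0.54 (FDR = 0.764) in Cre+.

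Of 22 other genes of satellite glia and immature Schwann cells, 14 could be tested in Cre-, and 2 were enriched and 2 depleted, beside 6.01% and 5.83% of all genes, with a median of -0.78 against -0.04. Aldoc, a glycolytic aldolase, rose by 2.33 (FDR = 4.72e-05) and the potassium channel Kcnj3 by 1.53 (FDR = 0.0171). Gfra3, the artemin receptor, which nociceptors make too, fell by 2.18 (FDR = 0.00045) and the endothelin receptor Ednrb had -1.51 (FDR = 0.0829). In the Cre+ libraries 13 were tested and 0 called, with a median of 0.53 that became -0.08 without Cre+ pull-down replicate 1. That library had a summed level of 4010 normalized counts for this list, against 2306 and 1839 in the other Cre+ pull-downs. The enrichment of Ngfr, the low-affinity neurotrophin receptor, was higher in Cre+ by 1.42 (FDR = 0.0155) and that of Aldoc lower, a difference of -3.42 (FDR = 0.00734). These were 1 higher and 1 lower of the 12 tested for a difference, where 2.58% and 2.10% of all genes were called so.

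For Erbb3, the neuregulin pathway around it can be described. Of 16 other genes of neuregulin and ErbB signalling, 10 could be tested in Cre- and 7 in Cre+. The ligand Hbegf was depleted in Cre- (-1.51, FDR = 0.0319), 1 of 10 where 5.83% of all genes were depleted, with 0 enriched and a median of 0.12. Nrg1, the axonal ligand of Erbb3, had 0.89 (FDR = 0.00268) there, under the fold limit. In Cre+ 1 of 7 was enriched, where 4.72% of all genes were, and 0 depleted, with a median of 0.54. This was Adam17, a protease that sheds neuregulin (2.30, FDR = 0.0946). Its enrichment was the 1 of 7 that differed between genotypes (2.87, FDR = 0.0808). Over all genes, 2.58% were called higher in that test and 2.10% lower.

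Around Apoe, 12 of 17 genes of apolipoproteins, their receptors and lipid efflux could be tested in Cre-, with 2 enriched and 0 depleted, beside 6.01% and 5.83% of all genes, and a median of 0. Those were Clu (1.97, FDR = 3.39e-05), the apolipoprotein J, and the sorting receptor Sort1 (2.27, FDR = 0.000149). Of 10 tested in Cre+, 1 was enriched, the Apoe receptor Lrp1 (3.01, FDR = 0.026), and 0 depleted, beside 4.72% and 2.19% of all genes, with a median of 0. By the test of the difference, enrichment was lower in Cre+ for Clu (-2.69, FDR = 0.00121) and Sort1 (-2.14, FDR = 0.0621) and higher for Lrp1 (2.18, FDR = 0.0999), 3 of 10 where 2.10% of all genes were lower and 2.58% higher. Around Glul, 15 of 16 genes of glutamine and glutamate handling were tested in Cre-, with 2 enriched (6.01% of all genes), 0 depleted and a median of 0.36. These were the aspartate aminotransferase Got1 (1.19, FDR = 0.000352) and the neuronal glutamate transporter Slc1a1 (1.98, FDR = 0.0102). In Cre+ 14 were tested and 0 called, with a median of -0.26, and the enrichment of Got1 (-2.04, FDR = 0.00347) and Got2 (-1.49, FDR = 0.0187) was lower there than in Cre-, 2 of 14 against 2.10% of all genes.

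In Cre-, most tested relatives of S100b were called depleted, and S100b was not. Of 12 other S100 genes, 8 could be tested in Cre-, where 5 were depleted and 0 enriched, against 5.83% and 6.01% of all genes, with a median of -1.95 against -0.04 for all genes, whereas S100b had 0.69. Those with the smallest FDR were S100a11 (-2.30, FDR = 8.47e-05), S100a6 (-2.31, FDR = 0.000264), S100a13 (-1.69, FDR = 0.00346) and S100a16 (-2.22, FDR = 0.00995). Among the Cre+ libraries 4 were tested and 2 depleted, S100a10 (-1.91, FDR = 0.042) and S100a6 (-2.22, FDR = 0.0614), against 2.19% of all genes, with a median of -1.80. S100b itself had -0.99 there (FDR = 0.117). The difference between genotypes was called for 0 of these 4 by edgeR's quasi-likelihood test, where 2.58% of all genes were called higher and 2.10% lower. Of 11 relatives of Fabp7 and Pmp22, 8 were tested in Cre- with a median of -1.14, and 1 was called each way. Emp3, of the Pmp22 family, was depleted (-2.33, FDR = 0.000254) and Tmem47, another membrane protein of that family, enriched (1.45, FDR = 0.000388). In Cre+ 6 were tested and 0 called, with a median of -1.12.

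The lists changed when the pull-downs that stood apart were left out, in fits added after the data were seen. Without Cre- pull-down replicate 1, where 9.2% of all genes were called depleted and 7.09% enriched in Cre-, 8 of 14 genes of satellite glia and immature Schwann cells were depleted in place of 2, and 5 of 7 myelin genes in place of 3. Egr2 was then called depleted (-2.54, FDR = 0.000267), as was Ngfr (-1.08, FDR = 0.000258). Of the relatives of Fabp7 and Pmp22, 3 of 8 were depleted in place of 1, and the S100 list kept 5 of 8. The apolipoprotein list had 3 of 12 enriched, Lpl being added (1.02, FDR = 0.0919), and 1 depleted, Apod (-3.15, FDR = 0.00358). In the neuregulin list 2 of 10 were depleted in place of 1, Egfr being added (-3.66, FDR = 0.0193). Without Cre+ pull-down replicate 1, where 6.04% were called depleted and 8.98% enriched in Cre+, Cd9 was depleted (-1.49, FDR = 0.0901), the median of the myelin list went from 0.35 to -0.07, Egr2 went from 0.54 to -1.30 (FDR = 0.223), and Zeb2, Adam17 and Lrp1 were still called enriched. The difference between genotypes was no longer called for Adam17 without Cre- pull-down replicate 1 (3.06, FDR = 0.1005). Nes (4.06, FDR = 0.0558) and Sparc (3.54, FDR = 0.0536) were then called higher in Cre+. That made 3 of 12 genes of satellite glia and immature Schwann cells higher in place of 1. Of all genes, 2.47% were called higher and 1.73% lower in that fit. Without Cre+ pull-down replicate 1, where 7.16% were called higher and 6.77% lower, S100a11 was called (1.66, FDR = 0.018). So were Gfra3, higher (1.77, FDR = 0.0323), and Gmps, lower (-1.36, FDR = 0.0815).

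**Figure D3:**
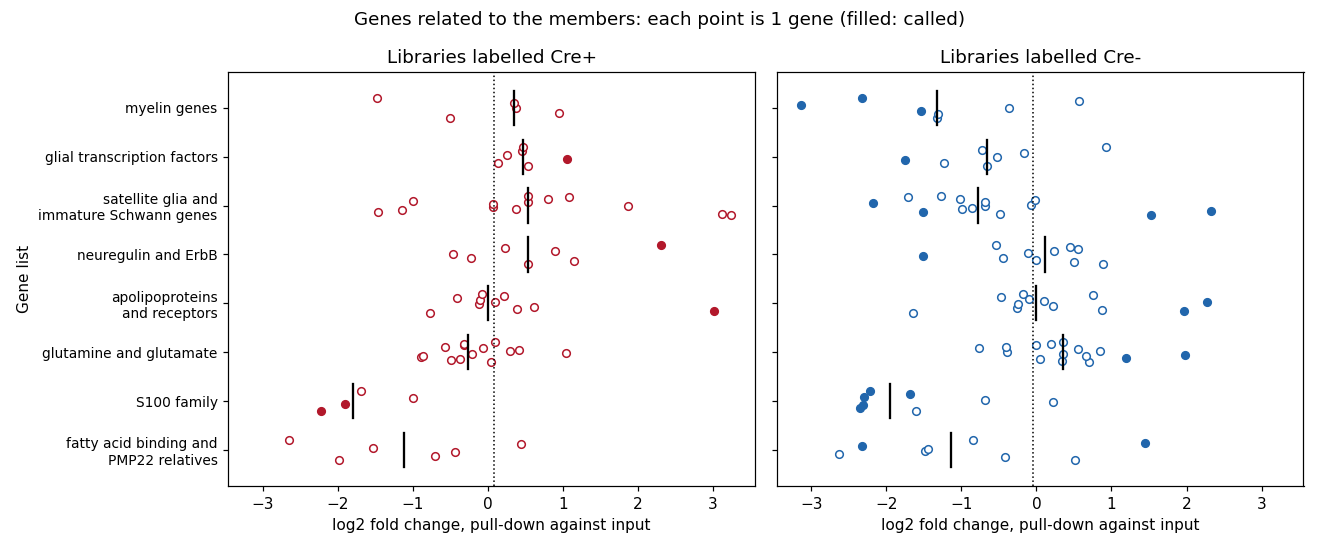
Log2 fold change of pull-down against input for each tested gene of 8 lists related to the glial genes, which are themselves left out; filled points were called, black bars are list medians and the dotted line the median of all genes. Under Cre- the S100 list has 5 of 8 genes called depleted and the myelin list 3 of 7.

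Markers of other cells moved as well, and their part in these results was not tested. Replicate 1 of either pull-down was left out because its sums of fibroblast, endothelial or macrophage genes were high. The counts of those genes without it are therefore partly set by that choice and are not a separate result. Over all genes, 5.83% were called depleted and 6.01% enriched in Cre-, and 2.19% and 4.72% in Cre+, and the shares without a library are those given with the lists. Sums are over the genes each table lists, which for Cre+ and Cre- were 5 and 6 of 6 proprioceptor, 5 and 7 of 7 fibroblast, 5 and 5 of 6 endothelial and 2 and 6 of 8 macrophage genes. The summed level of the proprioceptor list was 209.7 to 292.5 normalized counts in the Cre- inputs and 1251 to 1549 in the Cre- pull-downs, where all 6 genes were enriched. In Cre+ it was 178.5 to 242 in the inputs and 351 to 527 in the pull-downs, and 1 of 5 tested genes was enriched. Of 12 neuronal genes, 3 were enriched and 0 depleted in Cre-, against 0 and 3 in Cre+. Without Cre- pull-down replicate 1, 5 were enriched in Cre-, Nefl and Isl1 being added. Without Cre+ pull-down replicate 1, 2 were depleted in Cre+, Stmn2 being lost. Fibroblast genes summed to 83.3 to 101.5 in the Cre- inputs and 25.5 to 97.5 in the Cre- pull-downs, where 1 of 5 tested, Col1a1, was depleted, and all 5 without Cre- pull-down replicate 1. In Cre+ they had 68.1 to 98.2 and 67.5 to 81.3, with 0 of 4 called. Endothelial genes summed to 51.6 to 96.0 in the Cre+ inputs and 117.7 to 561 in the Cre+ pull-downs, where 2 of 5, Tek and Flt1, were enriched, and Tek alone without Cre+ pull-down replicate 1. They had 70.7 to 95.4 and 21.4 to 143.9 in the Cre- inputs and pull-downs, with 0 of 4 called, and 3 of 4 depleted without Cre- pull-down replicate 1. Macrophage genes summed to 25.8 to 68.2 and 4.85 to 112.3 in the Cre+ inputs and pull-downs and to 57.5 to 128.4 and 52.9 to 76.7 in those labelled Cre-, with 0 called, whereas without Cre- pull-down replicate 1 there was 1 enriched and 1 depleted of 4. No listed marker was at 0 in all 3 libraries of a group. For Cre+ this was fixed beforehand, since each gene listed there has 5 counts or more in all its libraries.

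Transcript length also went with the fold change. In the Cre+ libraries the median log2 fold change of all genes was -0.59 in the shortest tertile, -0.01 in the middle tertile and 0.68 in the longest. Pmp22, Apoe, S100b and Mbp are in the shortest tertile there, and Sox10 and Glul in the middle tertile. Pmp22 at -0.62 and Apoe at -0.64 thus lay close to the median of genes of their length, S100b at -0.99 and Glul at -0.38 below it, and Mbp at -0.32 and Sox10 at 0.22 above it. Among the Cre- libraries the medians were -0.32, -0.04 and 0.22. There Pmp22 (1800 bases), Apoe (1408 bases) and Fabp7 (804 bases) at -1.71, -1.58 and -3.09 lay well under the median of the shortest tertile, and S100b (1484 bases) at 0.69 above it. Sox10 at -1.11 and Mbp at -0.63 were also under the medians of their tertiles. The share of length in these values was not tested. Genes of the related lists, the S100 family among them, were not compared with genes of their length.

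**Figure D4:**
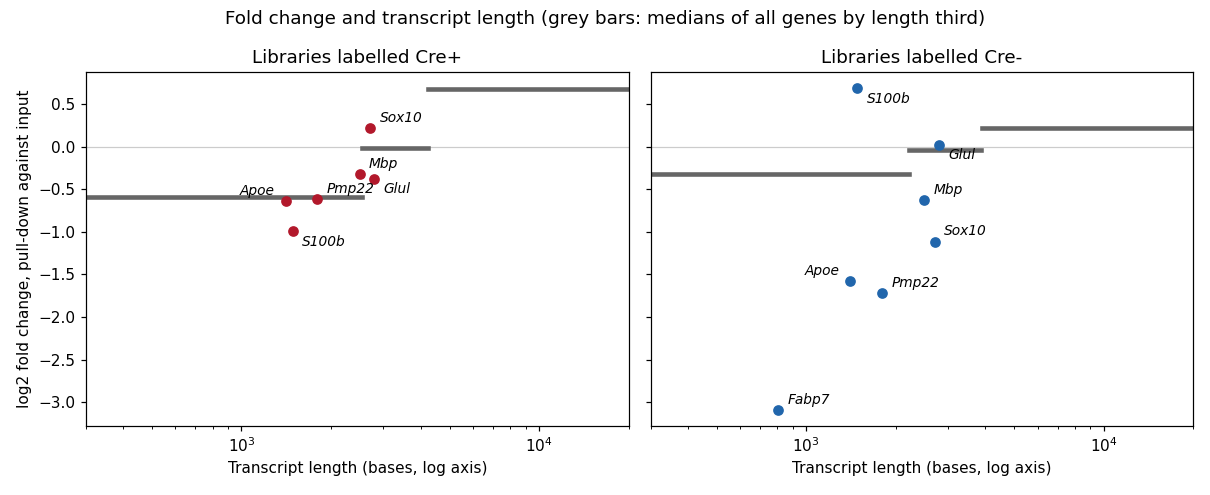
Log2 fold change of pull-down against input by RefSeq transcript length (log axis) for the glial genes; grey bars are the medians of all genes in each tertile of length. In Cre+ the points of Pmp22 and Apoe lie on the bars and those of S100b and Glul below them, while in Cre- Pmp22, Apoe, Fabp7, Sox10 and Mbp lie below the bars and S100b above.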

How the data were processed

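The authors aligned reads to mm10 with STAR, counted uniquely mapped fragments per RefSeq gene with HTSeq, and deposited these counts, not normalized, in 1 table per genotype, with their mean FPKM per gene. Base calling used CASAVA 1.8.2 per the submitters' processing notes. Log2 fold changes, p-values and FDR of the authors, from edgeR, and 18 further columns per sample were not used. The deposited FPKM served as a filter only (mean above 1). Each gene of the Cre+ table has 5 counts or more in all its libraries. Counts were tested with edgeR 4.0.16 in R 4.3.3 (TMM, robust quasi-likelihood fit), on the 6 libraries of a genotype for pull-down against input and on 12 or 6 libraries between genotypes. SE is the log2 fold change over the root of the F statistic. Floors (3 counts) cover counting error only, since the reads carry no molecular identifiers. The scripts were tested on simulated data. The genes, lists and tests were chosen with earlier results of these data known, and all 8 genes were named by rule, with at most 4 called genes per list and comparison. The value of 1 gene is not reported here. Alternatives were DESeq2 1.42.0, the exact test, other filters and scalings, 1 common fit, a replicate block, other thresholds and each library left out, and, chosen after seeing the data, a fit without robust estimation and, for the lists, fits without replicate 1 of either pull-down. Between the inputs same-numbered samples deviated together weakly (r = 0.285, 0.198 and 0.204), and Cre+ input 3 gave 0.149 with Cre- input 2. The numbers may thus pair the inputs, which no label states, and the main tests between genotypes did not use such pairs. In Cre- each pull-down shares its lysate with an input by the study's methods. Each correlated best with the input of its own number, but weakly (r = 0.0683, 0.0497 and 0.154), and pull-down 1 gave 0.0396 with input 2. Only the replicate block read these numbers as pairs, and the main fit was unpaired. No label says that the numbers mark the lysate. The labels and methods name different library kits. Lengths and coordinates came from RefSeq and GENCODE on GRCm38. Figures were drawn with matplotlib.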

Additional observations from a re-analysis of the deposited data

Results flagged for a closer look

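S100b is listed because its enrichment differed between genotypes by a test of the difference itself: -1.64 on the log2 scale (libraries labelled Cre+ minus those labelled Cre-, edgeR quasi-likelihood test, FDR = 0.0373). The sign rests on the labels, which Runx3 goes against. All 3 pull-downs were below all inputs in Cre+ and above them in Cre-. The range of its difference over the fits without 1 library is given with the other settings, and 3 of those fits did not call it.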

How the results depend on the processing

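For pull-down against input labelled Cre+, 0 of 6 genes were called (2.19% of all genes were called depleted), and 2 with scaling by library size alone (7.81%), 1 with upper-quartile scaling (2.97%), and 0 to 1 without 1 library (0% to 6.04%). For Cre-, 3 of 7 were called (5.83% depleted), and 1 of the 6 testable in the fit of all 12 libraries (1.98%, and Fabp7 could not be tested there), and 2 to 5 without 1 library (4.55% to 9.2%). The difference of enrichments was called for 1 of 6 (2.58% of all genes higher and 2.1% lower), for 2 with DESeq2 (6.96% and 4.76%) and for 0 to 2 without 1 library (0.17% to 8.06% and 0.351% to 7.85%). That of the pull-downs was called for 1 (1.69% and 1.56%), for 3 with DESeq2 (8.6% and 4.9%) and for 0 to 2 without 1 library (0% to 6.56% and 0.17% to 6.05%). The inputs gave 0 throughout. The shares of all genes called moved in these settings too, and the cause of these shifts was not tested.

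Directions turned in these settings. Sox10 in Cre+ went to -0.26 (library size alone), to -0.022 (upper quartile) and ran from -0.66 to 1.38 without 1 library, and Mbp in Cre+ from -0.93 to 0.12. Glul in Cre- went to -0.22 (library size alone), -0.014 (upper quartile), -0.007 (all 12 libraries) and -0.004 (replicate block), and from -0.23 to 0.18 without 1 library. Mbp ran from -0.29 to 0.81 in the difference of enrichments and from -0.13 to 1.001 between pull-downs. Between inputs the ranges were -0.13 to 0.35 (Mbp), -0.39 to 0.10 (Pmp22), -0.29 to 1.30 (Sox10), -0.37 to 0.15 (Apoe), -0.19 to 0.23 (S100b) and -0.11 to 0.18 (Glul, -0.01 with the block). In the difference of enrichments S100b kept its sign in all fits without 1 library, at -1.87 to -1.39.

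In Cre- the replicate block gave 4 called genes in place of 3, Sox10 being added (-1.73, FDR = 0.0731), and it changed no other call there or between the inputs. No paired analysis was run for the comparisons with Cre+ pull-downs. The names of those columns match titles of Cre- pull-downs, so that their numbers could not be tied to samples. Whether pairing would change the calls in those comparisons was not tested. The exact test was not run for the difference of enrichments. Depth limits Fabp7 most, with 0 to 9 counts in its pull-downs.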
